A study of Saccharomyces cerevisiae with 8 samples.

Results

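The 60 genes described here encode ribosome biogenesis factors of Saccharomyces cerevisiae, that is, nucleolar proteins that transcribe, modify, cut, fold and assemble ribosomal RNA, and 3 subunits of RNA polymerase I. They were taken from a list of names, by function and not by a threshold on any value, but with earlier results of these data known. All 60 were found by symbol among the 7105 genes of the deposited table. All 60 passed the filter on low counts, which left 5832 genes for testing. The 8 libraries were made from poly(A) RNA of BY4743, an a/α diploid of the S288C background, grown in SC-Ura medium. The ρ0 PDE2 cells carried a high-copy 2µ-URA3 plasmid with PDE2, a cyclic AMP phosphodiesterase whose activity lowers signalling through protein kinase A (PKA). The ρ0 TIP41 cells carried a 2µ-URA3 plasmid with TIP41, which acts in the TOR phosphatase branch. The ρ0 vector cells carried the empty plasmid pRS426. These 3 groups were grown for 24 hours with 25 µg/ml ethidium bromide (EtBr), which removes mitochondrial DNA (mtDNA). The ρ+ vector cells carried pRS426 and kept mtDNA without EtBr. The study's transcriptome methods state logarithmic phase for the ρ+ cultures and give only the 24 hours with EtBr for the ρ0 cultures. In any comparison with ρ+ cells, mtDNA loss, the drug and any difference in culture therefore cannot be told apart. Each group had 2 replicates, numbered 0 and 1, that were made by different experimenters. With 2 libraries a group, the spread in the main fit was estimated over all 4 groups, with information shared across genes. Its p-values measure that spread between the replicates of these 8 libraries, and not the spread of the compared groups alone.

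The libraries held 1389579 to 4884282 fragments in genes, and the 60 factors took 2.25% to 2.65% of them. The lowest count of a factor in a library was 81 fragments (IMP3 in ρ0 PDE2 replicate 0), so every factor was measured in every library. PDE2 was at 461 and 422 FPKM (fragments scaled for transcript length and library depth) in ρ0 PDE2 replicates 0 and 1, against 145 and 100 FPKM in ρ0 vector cells. TIP41 was at 704 and 612 FPKM in ρ0 TIP41 cells, against 49.2 and 62.5 FPKM in ρ0 vector cells. URA3, the plasmid marker, was at 2521 and 3955 FPKM in ρ0 PDE2 and 7233 and 10437 FPKM in ρ0 TIP41 cells. It was at 22424 and 22759 FPKM in ρ0 vector and 17982 and 21365 FPKM in ρ+ vector cells. The part of this difference in the values below was not tested. The 31 mtDNA genes had 0 fragments in all 6 ρ0 libraries, against 9 and 6 fragments in the ρ+ libraries. Of 16 haploid-specific genes, STE2 was at 7.53 to 22 FPKM and FUS3 at 0 to 3.35 FPKM in the 8 libraries. MF(ALPHA)2 was at 19.2 to 37.4 FPKM. FAR1 was at 26.8 to 41.4 FPKM in the 6 ρ0 libraries, against 16.5 and 14.6 FPKM in the ρ+ libraries. MFA1, a haploid pheromone gene, was listed at 348 FPKM in ρ0 PDE2 replicate 0 and 211 FPKM in ρ0 vector replicate 0 and at 0 in the other 6. The summed FPKM of the 16 was 519 and 177 in ρ0 PDE2, 165 and 169 in ρ0 TIP41, 575 and 183 in ρ0 vector and 127 and 137 in ρ+ vector libraries. MFA2, another pheromone gene, was at 148 FPKM in ρ0 vector replicate 0 and at 0 elsewhere. The median FPKM of the 16 genes was 9.08 and 6.33 in ρ0 PDE2 and 7.98 and 7.64 in ρ0 TIP41 libraries. This median was 13.3 and 10.1 in ρ0 vector and 7.22 and 7.25 in ρ+ vector libraries. Whether any haploid cells were present, and their part in the values below, was not tested. In bulk cultures, fewer cells with a transcript and less of it per cell cannot be told apart.

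Ribosome assembly starts in the nucleolus, where RNA polymerase I makes a long precursor RNA. Small nucleolar ribonucleoproteins (snoRNPs) of the box C/D type guide methylation of the precursor, and those of the box H/ACA type guide its pseudouridylation. The small subunit (SSU) processome, which is built from the UtpA, UtpB, UtpC and Mpp10 complexes around the U3 snoRNP, folds and cuts the part that becomes the small subunit. Helicases, GTPases, methyltransferases and scaffold proteins mature the large subunit. In yeast the genes for these proteins form a regulon that is known to follow nutrient signals through PKA and TOR, and the repressors Dot6 and Tod6, which PKA phosphorylates, bind a promoter motif named PAC. A second motif, RRPE, is known from the same promoters.

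These motifs were looked up in the 250 bases before each start codon in the RefSeq genome (build R64), on both strands. The PAC core GATGAG was found in 57 of the 60 promoters (95%), beside 1022 of 6001 promoters of protein-coding genes (17%). The RRPE core AAAAATTT was found in 51 (85%), beside 804 of all promoters (13.4%). The longer forms, GATGAG with GC directly before it and AAAAATTT with TG directly before it, were found in 35 factors (58.3%; 3.83% of all promoters) and in 32 factors (53.3%; 3.87% of all promoters). Both cores lay in 49 factors (81.7%; 4.98% of all promoters), and in 38 factors they fitted together within 30 bases (63.3%; 2.88% of all promoters). UTP4, UTP15 and UTP22 had no GATGAG in this window, and UTP22 was the factor with neither core. The core closest to the start codon was a median of 117 bases from it for GATGAG (range 67 to 204) and 138 bases for AAAAATTT (range 34 to 224). A match is a description of the letters and not a measured binding site.

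The windows of 10 factors show how the cores are arranged. NOP56, BRX1, GAR1 and CBF5 are shown because they had unadjusted p below 0.05 with PDE2. NSR1 and NOP1 are shown because they had the highest levels, and UTP10, UTP21, DIP2 and RPA190 because their fitted changes with PDE2 had the other sign. Each window reads 5′ to 3′ on the strand of its gene, and capitals mark the 2 cores in either direction:
NOP56: aagtgAAATTTTTttgagtGATGAGatggg
BRX1: gactgAAAAATTTtagatgCTCATCgcgat
GAR1: agtgAAAAATTTTTcgaGATGAGgaaagga
CBF5: atttgAAAAATTTtcaaatGATGAGatgtt
NSR1: gtgAAAAATTTgcaagggcagCTCATCgca
NOP1: AAAAATTTTTcaaattggaaagCTCATCtc
UTP10: gaaAAAAATTTtcagttagcGATGAGctag
UTP21: tttgagAAAAATTTcgcGATGAGattgcta
DIP2: acgcGATGAGcagtggaAAATTTTTcagaa
RPA190: AAAAATTTTTtttatttcaaatCTCATCtc
In build R64 these lie at chrXII:545951-545980 (NOP56, plus strand), chrXV:186859-186888 (BRX1, minus strand), chrVIII:283411-283440 (GAR1, minus strand), chrXII:505984-506013 (CBF5, plus strand) and chrVII:807835-807864 (NSR1, minus strand). The others lie at chrIV:427138-427167 (NOP1, plus strand), chrX:217400-217429 (UTP10, minus strand), chrXII:937332-937361 (UTP21, minus strand), chrXII:399526-399555 (DIP2, plus strand) and chrXV:960793-960822 (RPA190, plus strand). All are upstream of the coding sequence. Windows were drawn only for the 38 factors whose cores fitted within 30 bases, so each one shown holds both.

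Averaged over the 8 libraries, the factors ranged from 52.6 FPKM (UTP20) to 1545 FPKM (NSR1), with a median of 162 FPKM. NSR1, a nucleolin-like protein of small subunit processing, was at 1527 and 1606 FPKM in ρ0 PDE2 replicates 0 and 1, 1711 and 1459 FPKM in ρ0 TIP41, 1781 and 1372 FPKM in ρ0 vector and 1474 and 1431 FPKM in ρ+ vector cells. The ρ0 PDE2 libraries lay above the ρ+ libraries, and the other groups overlapped with each other and with both. NOP1, the fibrillarin methyltransferase of box C/D snoRNPs, was at 1083 and 1244 FPKM in ρ0 PDE2, 1026 and 1063 FPKM in ρ0 TIP41, 1047 and 843 FPKM in ρ0 vector and 1090 and 1093 FPKM in ρ+ vector cells. GAR1, a core protein of H/ACA snoRNPs, was at 1048 and 1334 FPKM in ρ0 PDE2, 941 and 1035 FPKM in ρ0 TIP41, 989 and 806 FPKM in ρ0 vector and 1027 and 957 FPKM in ρ+ vector cells. In NOP1 and GAR1 ρ0 vector replicate 1 was the lowest library and ρ0 PDE2 replicate 1 the highest.

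The listed members of the UtpA, UtpB, UtpC and Mpp10 complexes had lower FPKM than NSR1, NOP1 and GAR1. UTP5 was the highest of the listed UtpA subunits, which bind the start of the precursor. Its levels were 197 and 192 FPKM in ρ0 PDE2 and 208 and 174 FPKM in ρ0 TIP41 cells. They were 215 and 160 FPKM in ρ0 vector and 214 and 199 FPKM in ρ+ vector cells. UTP21, the highest of the listed UtpB subunits, was at 95.1 and 110 FPKM in ρ0 PDE2 and 114 and 96.4 FPKM in ρ0 TIP41 cells. It was at 139 and 111 FPKM in ρ0 vector and 125 and 114 FPKM in ρ+ vector cells. The 5 UtpB members had nearly the same level, since their means lay between 104 and 113 FPKM, and the 2 UtpC members were at 80.7 FPKM (UTP22) and 80.4 FPKM (RRP36) on average. UTP22 was at 81.9 and 67.9 FPKM in ρ0 PDE2, 94.2 and 69.1 FPKM in ρ0 TIP41, 92.8 and 63.9 FPKM in ρ0 vector and 95.1 and 81.1 FPKM in ρ+ vector cells. IMP4, which joins the U3 RNA to the precursor with Imp3 and Mpp10, was at 228 and 242 FPKM in ρ0 PDE2, 204 and 193 FPKM in ρ0 TIP41, 213 and 185 FPKM in ρ0 vector and 216 and 247 FPKM in ρ+ vector cells. In UTP22 replicate 0 was above replicate 1 in every group.

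Among large subunit factors the highest was DBP2, a DEAD-box helicase, at 937 and 1194 FPKM in ρ0 PDE2, 1000 and 1097 FPKM in ρ0 TIP41, 1082 and 878 FPKM in ρ0 vector and 1042 and 735 FPKM in ρ+ vector cells. NOP15, an RNA-binding protein, was at 423 and 463 FPKM in ρ0 PDE2, 445 and 452 FPKM in ρ0 TIP41, 437 and 379 FPKM in ρ0 vector and 492 and 505 FPKM in ρ+ vector cells. NOP7, the scaffold of the PeBoW complex with Erb1 and Ytm1, was at 408 and 523 FPKM in ρ0 PDE2, 371 and 442 FPKM in ρ0 TIP41, 387 and 367 FPKM in ρ0 vector and 468 and 347 FPKM in ρ+ vector cells. Both ρ+ libraries of NOP15 were above all 6 ρ0 libraries. NOG1, a GTPase of early large subunit particles, was at 372 and 370 FPKM in ρ0 PDE2, 394 and 323 FPKM in ρ0 TIP41, 387 and 301 FPKM in ρ0 vector and 410 and 357 FPKM in ρ+ vector cells. NOP2, which methylates a cytosine of the large ribosomal RNA, was at 235 and 301 FPKM in ρ0 PDE2, 248 and 264 FPKM in ρ0 TIP41, 254 and 225 FPKM in ρ0 vector and 265 and 249 FPKM in ρ+ vector cells. NOC2, which carries pre-ribosomes with Mak21 or Noc3, was at 184 and 167 FPKM in ρ0 PDE2, 194 and 161 FPKM in ρ0 TIP41, 195 and 144 FPKM in ρ0 vector and 215 and 162 FPKM in ρ+ vector cells. The groups overlapped in all 3. RPA135, the second largest subunit of RNA polymerase I, was at 220 and 217 FPKM in ρ0 PDE2, 246 and 215 FPKM in ρ0 TIP41, 283 and 216 FPKM in ρ0 vector and 270 and 216 FPKM in ρ+ vector cells.

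The factors varied little. The highest library of a factor was 1.21 times (NOC3) to 1.93 times (UTP10) its lowest, with a median of 1.4, so all 60 stayed within 2-fold over the 8 libraries. Of 2871 tested genes with a mean FPKM in the range of the factors, 2315 (80.6%) stayed within 2-fold, with a median of 1.56. The factors with the widest range after UTP10 were NOP56 at 1.85, IMP3 at 1.74 and GAR1 at 1.65.

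**Figure D1:**
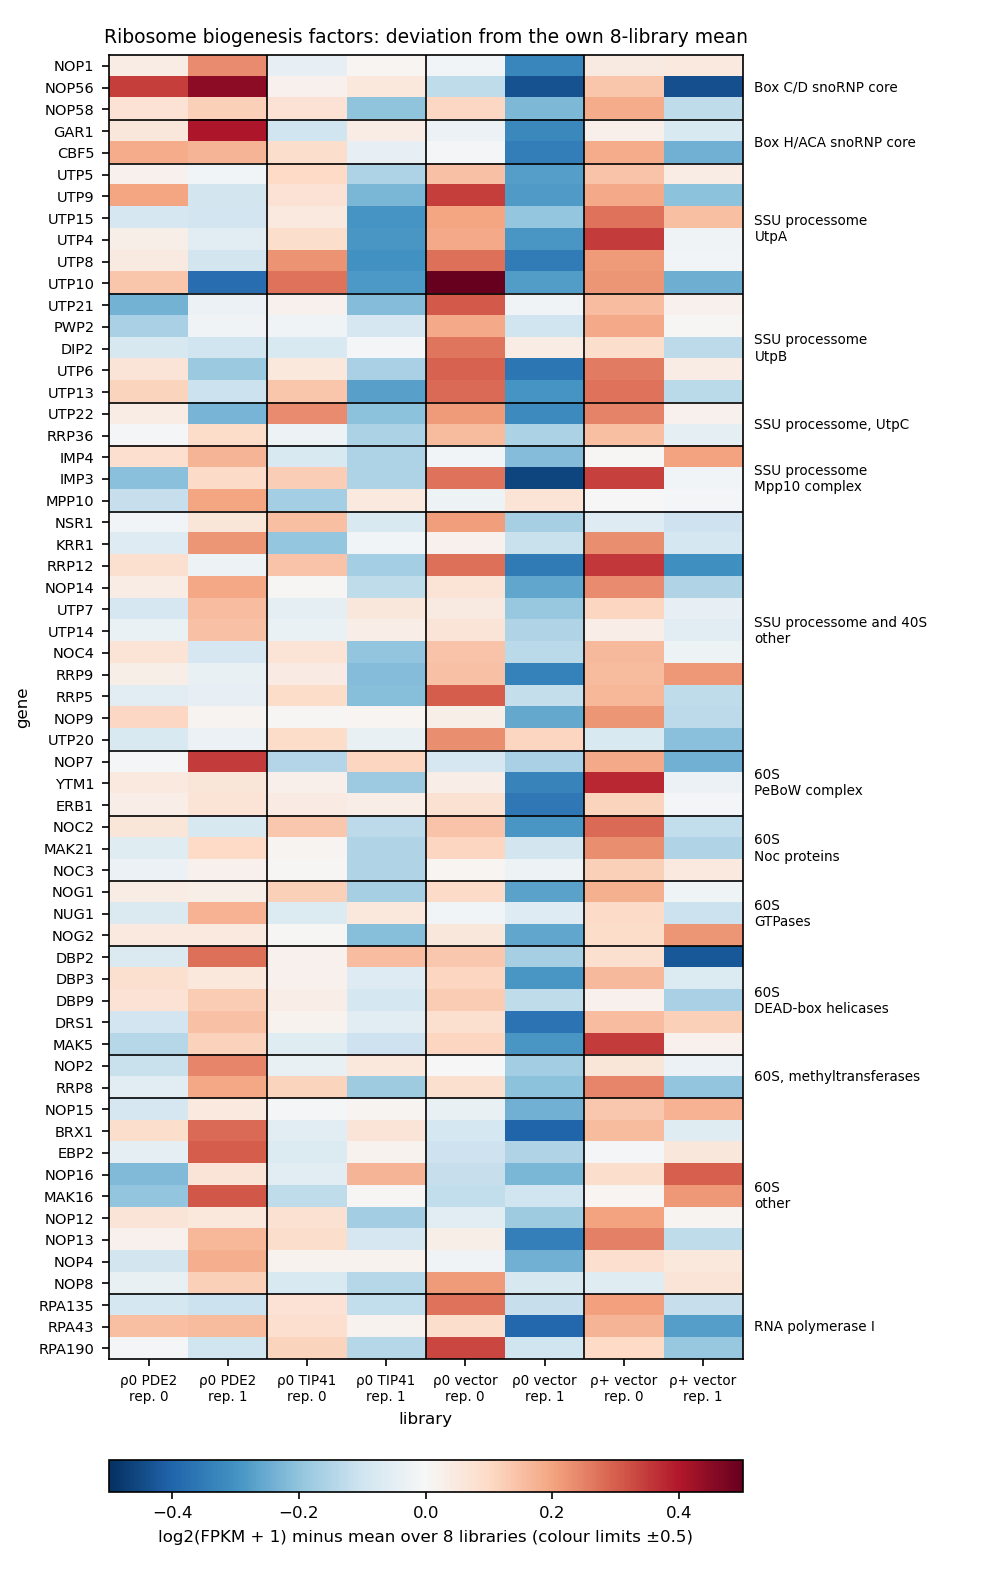
Deviation of each of the 60 factors (rows, grouped by role) from its own mean over the 8 libraries (columns), in log2(FPKM + 1), where red is above and blue below the mean. The ρ0 vector replicate 1 column is blue for nearly all rows, with 3 of 60 factors above their own mean, and the ρ+ vector replicate 0 column is red with 56 of 60 above.

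Loss of mtDNA was examined by setting ρ0 vector against ρ+ vector cells. No factor passed the threshold of adjusted p below 0.05 in edgeR's quasi-likelihood test with Benjamini-Hochberg adjustment, whereas 437 genes rose and 372 fell among the 5832 tested (13.9% called). At an unadjusted p below 0.05 there was 1 factor (29% of all genes). DESeq2 and limma also called 0, with 0 at an unadjusted p below 0.05. The fitted log2 fold changes lay between −0.35 (NOP16) and 0.33 (UTP20) with a median of −0.12, beside a median of 0.01 over all genes, and 47 of 60 were negative. The median size of a change was 0.14 in the factors and 0.25 over all genes, on the log2 scale, with median standard errors of 0.16 and 0.17. The groups did not overlap in FPKM in 13 factors that were lower in ρ0 vector cells (25.8% of all genes) and in 1 that was higher (26.9% of all genes).

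NOP16, a protein of early large subunit particles, had the smallest p. It was at 343 and 317 FPKM in ρ0 vector replicates 0 and 1, against 395 and 458 FPKM in ρ+ vector cells, so the groups did not overlap. Its log2 fold change was −0.35 ± 0.15 (SE, n = 2 each; edgeR adjusted p = 0.139), with a 95% interval from −0.68 to −0.03. NOP15 (−0.28 ± 0.14; adjusted p = 0.185) was at 437 and 379 FPKM in ρ0 vector cells, against 492 and 505 FPKM in ρ+ vector cells, without overlap. YTM1 of the PeBoW complex (−0.32 ± 0.16; adjusted p = 0.185) was at 195 and 151 FPKM in ρ0 vector cells, against 248 and 187 FPKM in ρ+ vector cells, with overlap. UTP20, a large processome protein and the factor with the longest coding sequence, had the opposite sign (0.33 ± 0.16; adjusted p = 0.188), at 61.8 and 56.5 FPKM in ρ0 vector cells, against 49.7 and 45.2 FPKM in ρ+ vector cells. BRX1, an early large subunit factor, was at 389 and 313 FPKM in ρ0 vector cells, against 462 and 397 FPKM in ρ+ vector cells (−0.30 ± 0.16; adjusted p = 0.231). None of these 5 passed the threshold. The 95% interval of every factor lay within 2-fold of no change, and that of 50 factors within 1.5-fold.

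By role, the fitted medians were −0.14 for the 3 box C/D proteins, −0.13 for the 2 H/ACA proteins, −0.13 for UtpA, −0.04 for UtpB, −0.12 for UtpC, −0.21 for the Mpp10 complex and −0.07 for the 11 other small subunit factors. They were −0.17 for PeBoW, −0.10 for the Noc proteins, −0.15 for the GTPases, −0.12 for the DEAD-box helicases, −0.10 for the methyltransferases and −0.23 for the other large subunit factors. The 3 subunits of RNA polymerase I had a median of 0.05, with RPA190 at 0.18, RPA135 at 0.05 and RPA43 at −0.10. None of these role groups held a factor past the threshold. The sign of the overall median rested on single libraries: it was −0.28 without ρ0 vector replicate 0, 0.02 without ρ0 vector replicate 1, 0.00 without ρ+ vector replicate 0 and −0.22 without ρ+ vector replicate 1. Without ρ0 vector replicate 0, where ρ0 vector replicate 1 alone stood for its group, 4 factors passed the threshold as lower (DRS1, NOP16, RRP9 and UTP6), beside 16.1% of all genes in that fit in either direction.

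The PDE2 plasmid, used in the study to lower PKA signalling, was examined by setting ρ0 PDE2 against ρ0 vector cells. PKA activity was not measured in these libraries. No factor passed the threshold in edgeR, beside 76 genes that rose and 58 that fell (2.3% called). At an unadjusted p below 0.05 there were 4 factors, all higher (19.7% of all genes in either direction, and 11.2% higher). The fitted log2 fold changes lay between −0.30 (UTP10) and 0.66 (NOP56), with a median of 0.07 beside −0.02 over all genes, and 39 of 60 were positive. The median size of a change was 0.12 in the factors and 0.22 over all genes. DESeq2 called 1 (NOP56), with 4 at an unadjusted p below 0.05, and limma called 0, with 3. In 11 factors the ρ0 PDE2 libraries lay above the ρ0 vector libraries without overlap (22% of all genes), and in 3 below (23.3% of all genes).

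NOP56, the scaffold of box C/D snoRNPs and a partner of Nop58, had the largest fitted change. It was at 800 and 858 FPKM in ρ0 PDE2 replicates 0 and 1, against 577 and 466 FPKM in ρ0 vector cells, from 1706 and 3666 fragments against 2075 and 1680 fragments. Both ρ0 PDE2 values were above the other 6 libraries. The log2 fold change was 0.66 ± 0.18 (SE, n = 2 each), or 1.58-fold with a 95% interval of 1.21 to 2.06, and edgeR's adjusted p was 0.0678. With replicate number as a block in edgeR the adjusted p was 0.0121 and NOP56 passed, as it did in DESeq2 (adjusted p = 0.0078), while limma on log2(FPKM + 1) gave an adjusted p of 0.228. Over all 15 alternatives the fitted change stayed between 0.50 and 0.80 and the adjusted p between 0.0078 and 0.273. NOP56 lies at chrXII:546097-547611 over a dubious open reading frame on the other strand, YLR198C, which took 2.03% to 4.04% of the fragments of the pair in the 8 libraries. Counting without strand could not tell the pair apart.

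BRX1 was at 440 and 504 FPKM in ρ0 PDE2 cells, against 389 and 313 FPKM in ρ0 vector cells (0.41 ± 0.16; edgeR adjusted p = 0.166). GAR1 was at 1048 and 1334 FPKM in ρ0 PDE2 cells, against 989 and 806 FPKM in ρ0 vector cells (0.41 ± 0.16; adjusted p = 0.175). CBF5, the pseudouridine synthase of H/ACA snoRNPs, was at 770 and 762 FPKM in ρ0 PDE2 cells, against 674 and 532 FPKM in ρ0 vector cells (0.34 ± 0.16; adjusted p = 0.254). In these 3 genes the groups did not overlap, but the adjusted p missed the threshold. DIP2, a UtpB subunit, was lower in both replicates, at 99.7 and 98.4 FPKM in ρ0 PDE2 cells, against 127 and 108 FPKM in ρ0 vector cells, with a log2 fold change of −0.27 ± 0.14 (adjusted p = 0.298). Of the 5 listed core snoRNP proteins, 4 were among the 8 factors with the smallest p (NOP56, GAR1, CBF5 and NOP1). That cutoff was chosen after the values were seen. The fifth, NOP58, was at 0.14 ± 0.16. A further list of 12 H/ACA partners and snoRNP assembly genes had a median of only 0.06 with PDE2, with 9 positive.

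**Figure D2:**
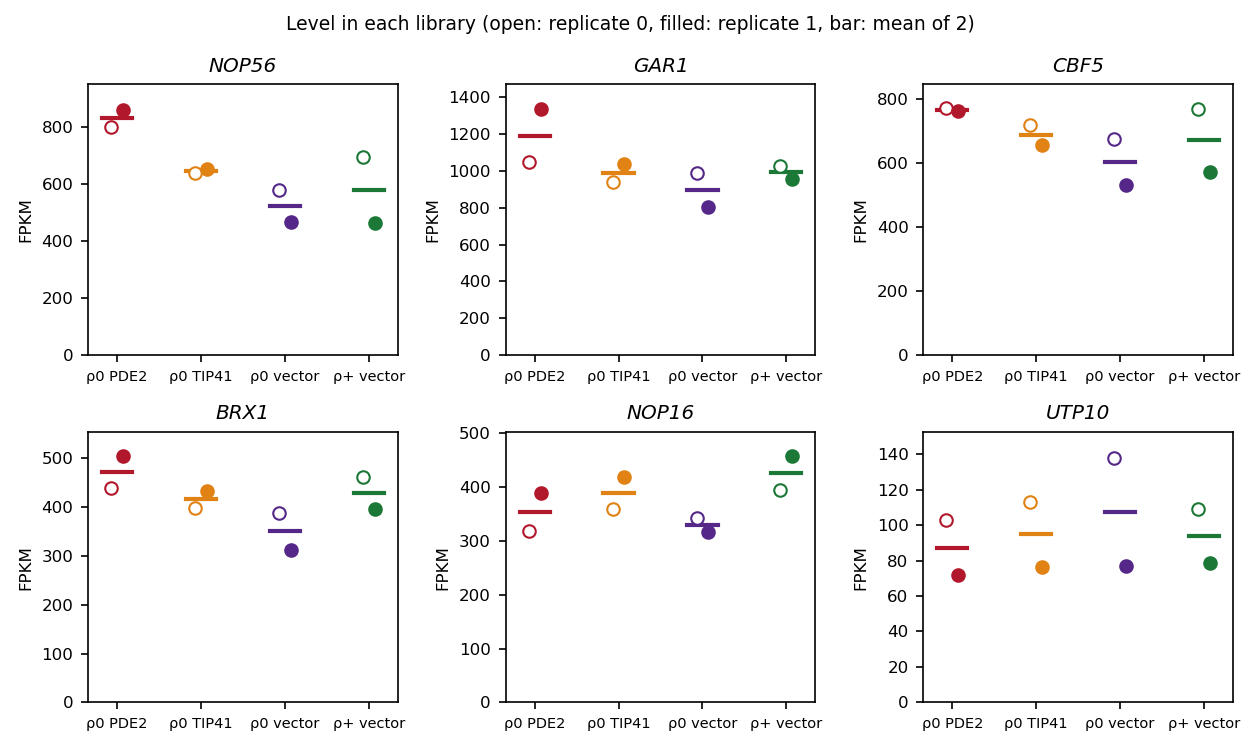
FPKM (y axis, from 0) of NOP56, GAR1, CBF5, BRX1, NOP16 and UTP10 in each library of the 4 groups (x axis), with replicate 0 open, replicate 1 filled and a bar at the mean of 2. NOP56 was at 800 and 858 FPKM in ρ0 PDE2 cells, above the other 6 libraries, and UTP10 was higher in replicate 0 than in replicate 1 in every group.

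By role, the fitted medians with PDE2 were 0.31 for box C/D, 0.38 for H/ACA, 0.19 for PeBoW, 0.13 for the methyltransferases and for the other large subunit factors, 0.11 for the DEAD-box helicases and 0.08 for the GTPases. The medians were −0.02 for UtpA, −0.15 for UtpB, −0.04 for UtpC, 0.07 for the Mpp10 complex, 0.04 for the 11 other small subunit factors (7 positive), −0.02 for the Noc proteins and −0.20 for RNA polymerase I, where RPA43 was at 0.28 and RPA190 and RPA135 both at −0.20. All 5 listed snoRNP proteins and all 5 listed DEAD-box helicases were positive, and all 5 listed UtpB subunits were negative. These are counts within small groups, and none of the groups held a factor past the threshold. The 95% intervals lay within 2-fold for 59 factors and within 1.5-fold for 50, and NOP56 had the widest bound, at 2.06-fold.

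**Figure D3:**
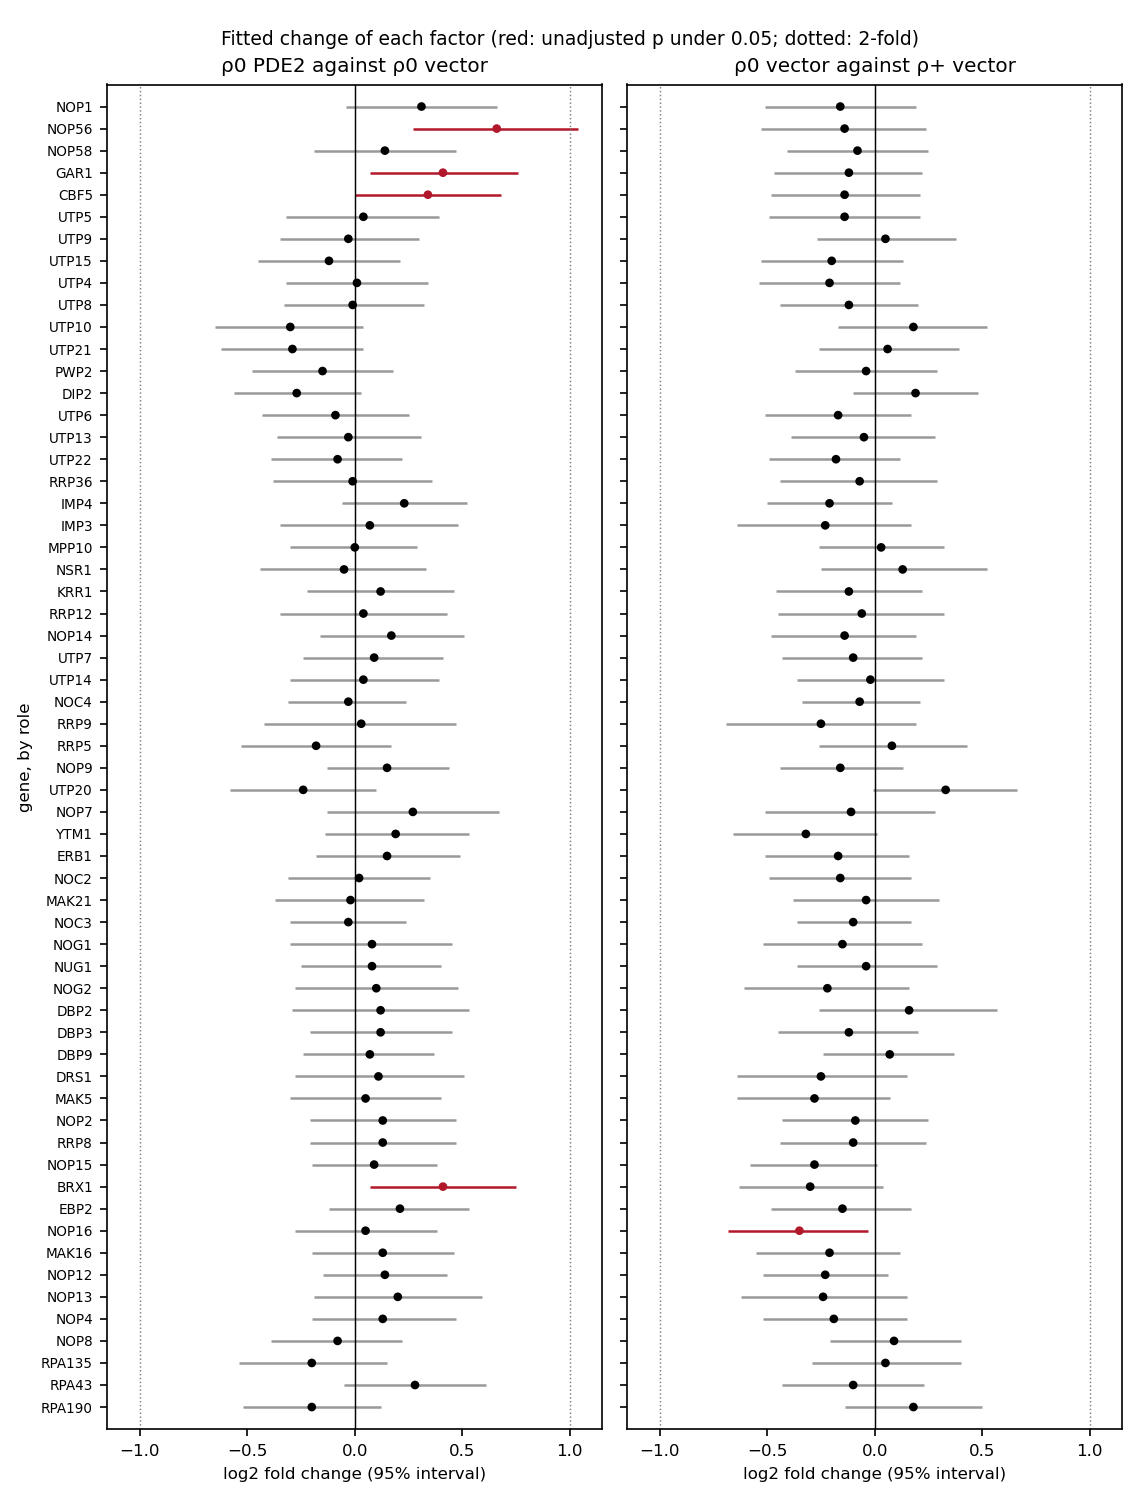
Fitted log2 fold change (x axis) with its 95% interval for each of the 60 factors (rows, in the role order of the map of deviations), for ρ0 PDE2 against ρ0 vector on the left and ρ0 vector against ρ+ vector on the right. Red marks an unadjusted p below 0.05, which 4 factors had on the left and 1 (NOP16) on the right, and only the interval of NOP56 crossed the dotted 2-fold line.

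The ratios differed between the replicate numbers. In the replicate 0 libraries, 12 factors were higher and 48 lower in ρ0 PDE2 than in ρ0 vector cells, with a median log2 FPKM ratio of −0.10. In the replicate 1 libraries, 55 were higher and 5 lower, with a median of 0.30. Over all genes the medians were −0.01 in both. NOP56 was higher in both (0.47 and 0.88), as were BRX1 (0.18 and 0.69), CBF5 (0.19 and 0.52) and GAR1 (0.08 and 0.73). IMP3, a U3 snoRNP protein, was lower in replicate 0, at 131 FPKM in ρ0 PDE2 against 183 FPKM in ρ0 vector cells, and higher in replicate 1, at 162 FPKM against 110 FPKM. The fitted median was 0.23 without ρ0 vector replicate 0, when GAR1, NOP1 and NOP56 passed the threshold (3 of 60, beside 7.19% of all genes in that fit), and −0.10 without ρ0 vector replicate 1, when 20 of 60 were positive and none passed. The median was also negative, at −0.02, without ρ0 PDE2 replicate 1, and 0.13 without ρ0 PDE2 replicate 0.

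**Figure D4:**
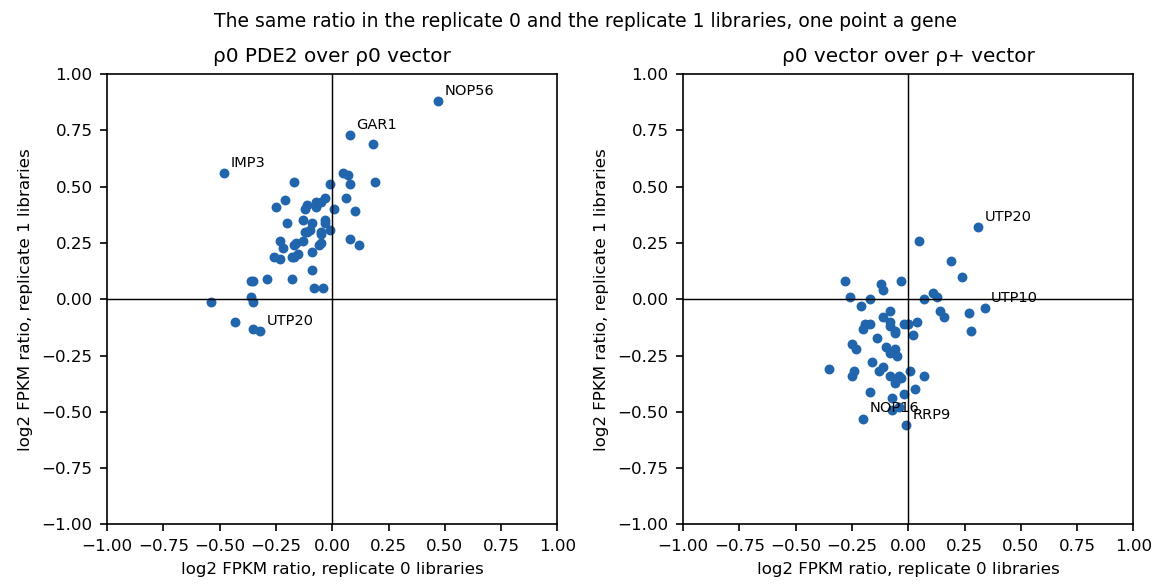
Log2 FPKM ratio of each factor in the replicate 0 libraries (x axis) and in the replicate 1 libraries (y axis), for ρ0 PDE2 over ρ0 vector on the left and ρ0 vector over ρ+ vector on the right. On the left most points lie above 0 on the y axis (55 of 60) and below 0 on the x axis (48 of 60), and NOP56 is far out on both axes.

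TIP41 was examined by setting ρ0 TIP41 against the same ρ0 vector cells. No factor passed the threshold in edgeR, beside 8 genes that rose and 16 that fell (0.412% called), and 0 had an unadjusted p below 0.05 (10.7% of all genes). DESeq2 and limma called 0 as well. The fitted log2 fold changes lay between −0.22 (UTP21) and 0.30 (NOP56), with a median of 0.03 beside 0.01 over all genes and 36 of 60 positive. NOP56 was at 639 and 653 FPKM in ρ0 TIP41 cells, against 577 and 466 FPKM in ρ0 vector cells (0.30 ± 0.18; adjusted p = 0.606). NOP16 was at 358 and 418 FPKM in ρ0 TIP41 cells, against 343 and 317 FPKM in ρ0 vector cells (0.25 ± 0.15; adjusted p = 0.614). BRX1 was at 399 and 433 FPKM in ρ0 TIP41 cells, against 389 and 313 FPKM in ρ0 vector cells (0.24 ± 0.16; adjusted p = 0.631). In these 3 genes the groups did not overlap. Over all factors, 6 were higher in ρ0 TIP41 cells without overlap (18.2% of all genes) and 2 lower (19.8% of all genes). UTP21 was at 114 and 96.4 FPKM in ρ0 TIP41 cells, against 139 and 111 FPKM in ρ0 vector cells (−0.22 ± 0.15; adjusted p = 0.647). RPA43, the RNA polymerase I subunit that meets the initiation factor Rrn3, was at 223 and 213 FPKM in ρ0 TIP41 cells, against 224 and 160 FPKM in ρ0 vector cells (0.20 ± 0.15; adjusted p = 0.681). Both overlapped between the groups. The 95% intervals lay within 1.5-fold for 59 of 60 factors, all but NOP56.

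As with PDE2, the replicate numbers differed. In the replicate 0 libraries 48 factors were lower in ρ0 TIP41 than in ρ0 vector cells (median log2 FPKM ratio −0.07), and in the replicate 1 libraries 45 were higher (median 0.11). The fitted median was 0.20 without ρ0 vector replicate 0 and −0.10 without ρ0 vector replicate 1, and it was −0.03 without ρ0 TIP41 replicate 0. The comparisons of PDE2 and of TIP41 share the 2 ρ0 vector libraries, which are also the cells set against ρ+ in the comparison of mtDNA loss, so none of the 3 is independent of the others.

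The remaining comparisons set no group against ρ0 vector cells, and they share libraries with the others and with each other. Between ρ0 PDE2 and ρ0 TIP41 cells, edgeR called 0 factors (0.394% of all genes), with 0 at an unadjusted p below 0.05 (6.58% of all genes), and DESeq2 and limma called 0. The fitted changes lay between −0.19 (NOP16) and 0.36 (NOP56), with a median of 0.04 beside −0.01 over all genes. That median was −0.04 without ρ0 PDE2 replicate 1 and −0.02 without ρ0 TIP41 replicate 1, against 0.10 without ρ0 PDE2 replicate 0 and 0.09 without ρ0 TIP41 replicate 0. NOP56, at 800 and 858 FPKM in ρ0 PDE2 against 639 and 653 FPKM in ρ0 TIP41 cells, did not overlap between these groups (0.36 ± 0.18; adjusted p = 0.758). In 16 factors ρ0 PDE2 was above ρ0 TIP41 without overlap (18.3% of all genes), and in 1 below (14.6% of all genes). For PDE2 against TIP41, 58 of the 60 intervals lay within 1.5-fold.

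Set against ρ+ vector cells, ρ0 PDE2 cells gave 0 factors in edgeR (5.13% of all genes called), with 1 at an unadjusted p below 0.05 (18.6% of all genes) and 0 by DESeq2 and limma. That factor was NOP56, at 800 and 858 FPKM in ρ0 PDE2 against 693 and 464 FPKM in ρ+ vector cells (0.52 ± 0.18; adjusted p = 0.121), and it passed with the replicate block (adjusted p = 0.0476) and in a fit on these 2 groups alone (adjusted p = 0.0491). The median over the factors was −0.04, with 23 of 60 positive, and 4 were higher (23.6% of all genes) and 9 lower (21.1% of all genes) without overlap. The median was 0.03 with 34 positive without ρ0 PDE2 replicate 0 and 0.05 with 38 positive without ρ+ vector replicate 0, against −0.10 without ρ0 PDE2 replicate 1 and −0.14 without ρ+ vector replicate 1. ρ0 TIP41 cells against ρ+ vector cells gave 0 factors (5.25% of all genes called), with 0 at an unadjusted p below 0.05 (18.4% of all genes) and 0 by DESeq2 and limma. Here the median was −0.09 and 48 of 60 were negative, and 1 was higher (21.3% of all genes) and 14 lower (23.5% of all genes) without overlap. Without ρ+ vector replicate 0 the median was 0.03, and without ρ+ vector replicate 1 it was −0.16. The smallest p was that of UTP15, a UtpA subunit at 136 and 107 FPKM in ρ0 TIP41 against 159 and 146 FPKM in ρ+ vector cells (−0.30 ± 0.16; adjusted p = 0.339).

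The factors also deviated together in single libraries. The median deviation from the own 8-library mean was 0.01 and 0.07 in ρ0 PDE2 replicates 0 and 1, 0.02 and −0.11 in ρ0 TIP41, 0.10 and −0.23 in ρ0 vector and 0.16 and −0.04 in ρ+ vector libraries, in log2(FPKM + 1). Over all tested genes these medians stayed between −0.01 and 0.03. ρ0 vector replicate 1 was the lowest library for 37 of 60 factors (19.6% of all genes) and the highest for 0 (16.1% of all genes). ρ+ vector replicate 0, the deepest library, was the highest for 24 (14.5% of all genes) and the lowest for 0 (14.1% of all genes). Values of ρ0 vector replicate 1 enter the comparisons of PDE2, TIP41 and mtDNA loss, and what sets this library apart was not tested.

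Replicate 1 against replicate 0 was tested over the 4 groups. No factor passed in edgeR (1.68% of all genes called), with 9 lower and 1 higher at an unadjusted p below 0.05 (12.1% of all genes), and DESeq2 called 0. limma on log2(FPKM + 1) called 1, UTP10, as lower in replicate 1 (adjusted p = 0.0355). In edgeR 53 of 60 fitted changes were negative, with a median of −0.11 beside −0.01 over all genes. The smallest p was that of RRP9, a protein of the U3 snoRNP, at −0.34 ± 0.10 (adjusted p = 0.0786), which was at 109, 96, 88.3 and 130 FPKM in replicate 1 of ρ0 PDE2, ρ0 TIP41, ρ0 vector and ρ+ vector cells, against 114, 115, 124 and 125 FPKM in replicate 0. RRP9 passed with no filter on low counts (adjusted p = 0.0442) and in 4 of the 8 fits that left out a library. By FPKM, 18 factors were lower in replicate 1 in all 4 groups (17.2% of all genes), among them all 6 listed UtpA subunits. MAK16 was higher in all 4 (14.2% of all genes with that direction).

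UTP10, which had the widest range, was at 71.6, 76.4, 76.7 and 78.8 FPKM in replicate 1 of ρ0 PDE2, ρ0 TIP41, ρ0 vector and ρ+ vector cells, against 103, 113, 138 and 109 FPKM in replicate 0, so the replicates did not overlap. The FPKM values, which the authors corrected for sequence bias, and the fragment counts differed in this gene. On CPM, the fragments scaled for depth alone, the log2 ratios of replicate 1 to 0 were −0.09, −0.15, −0.44 and −0.06 in the same order of groups, against −0.52, −0.56, −0.84 and −0.46 on FPKM. In UTP20 the 2 units differed in sign, with a fitted change of 0.21 ± 0.10 on fragments (adjusted p = 0.385) and FPKM ratios below 0 in 3 of 4 groups. The part of the bias correction in this was not tested.

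Coding length was set against the fitted changes in each comparison. From IMP3 (552 bases) to UTP20 (7482 bases), Spearman's rho of log2 fold change with coding length over the 60 factors was −0.57 for PDE2, −0.47 for TIP41 and 0.47 for mtDNA loss, beside −0.33, −0.24 and 0.12 over 5487 protein-coding genes. These 3 share the ρ0 vector libraries. Elsewhere rho was −0.52 for PDE2 against TIP41 (−0.23 over all), −0.23 for PDE2 against ρ+ (−0.19), 0.16 for TIP41 against ρ+ (−0.04) and −0.08 for replicate 1 against 0 (0.16). These correlations run across genes measured in the same libraries, which are not independent replicates, and are given as a description. With PDE2, the 8 factors of 3000 bases or more had a median log2 fold change of −0.19 with 1 positive, and the 11 factors under 1000 bases a median of 0.13 with 10 positive. For ρ0 vector against ρ+ vector cells the 8 longest had a median of 0.07 and the 11 shortest −0.21 with 0 positive. The snoRNP proteins GAR1 (618 bases) and NOP1 (984 bases) are among the shorter factors, RPA190 (4995 bases) and UTP10 (5310 bases) among the longest, and NOP56 (1515 bases) lies between. Role and length cannot be told apart by these counts.

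**Figure D5:**
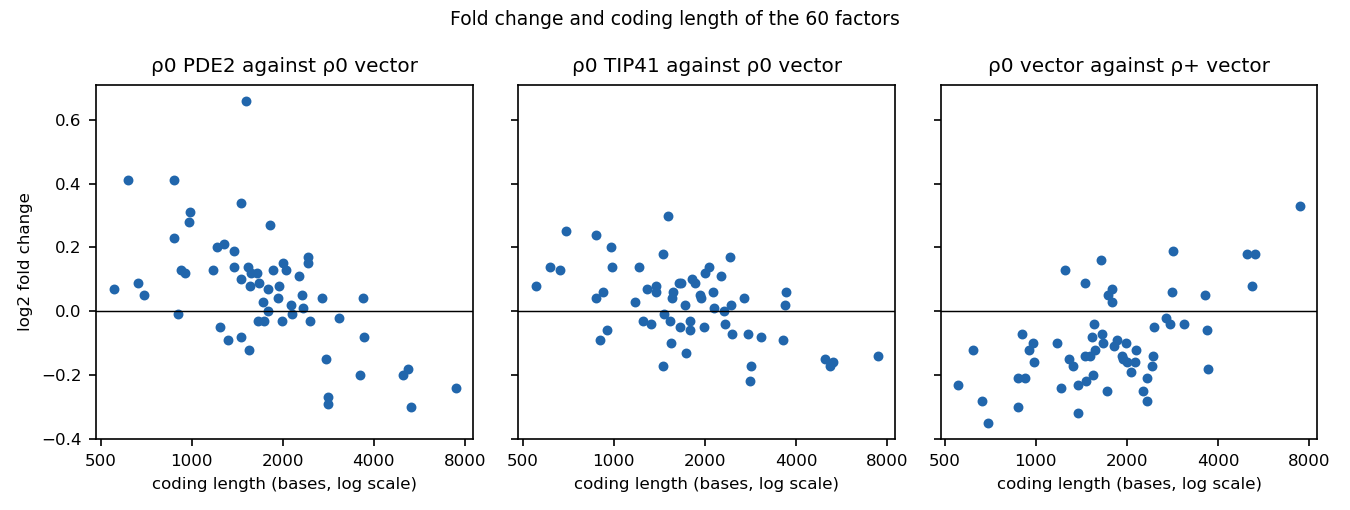
Fitted log2 fold change (y axis) against coding length in bases (x axis, log scale) for the 60 factors, for ρ0 PDE2 against ρ0 vector, ρ0 TIP41 against ρ0 vector and ρ0 vector against ρ+ vector. The points fall with length in the first panels (rho −0.57 and −0.47) and rise in the last (0.47).

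In 7 further lists (other large and small subunit factors, H/ACA partners, exosome subunits, other RNA polymerase I and RNA polymerase III components, and regulators of the regulon), 1 of 181 tested genes passed for mtDNA loss, 0 for PDE2 and 0 for TIP41 in edgeR, beside 13.9%, 2.3% and 0.412% of all genes. At an unadjusted p below 0.05 there were 13, 10 and 7, beside 29%, 19.7% and 10.7% of all genes. The gene that passed was RRN3, the initiation factor that joins RNA polymerase I to its promoter, at 83 and 83.6 FPKM in ρ0 vector cells, against 55.7 and 52.9 FPKM in ρ+ vector cells (0.63 ± 0.14; adjusted p = 0.0078). RRN3 was also higher in ρ0 PDE2 (70.2 and 87.1 FPKM; adjusted p = 0.0428) and in ρ0 TIP41 (76.7 and 74.9 FPKM; adjusted p = 0.0485) than in ρ+ vector cells. The groups did not overlap in any of the 3. The medians for mtDNA loss were −0.12 for 57 further large subunit factors and −0.09 for 47 further small subunit factors. For PDE2 these medians were 0.07 and −0.02. The PAC repressors DOT6 and TOD6 were not called: DOT6 was at 145 and 123 FPKM in ρ0 PDE2, against 124 and 116 FPKM in ρ0 vector cells (0.15 ± 0.16; adjusted p = 0.643), and TOD6 at 102 and 116 FPKM against 127 and 101 FPKM (−0.08 ± 0.16; adjusted p = 0.814).

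Genes of the cytosolic ribosomal proteins, which the factors assemble, had larger medians in the same fits. For PDE2 the median log2 fold change of the 131 tested was 0.47, with 5 called, all higher (2.3% of all genes called). At an unadjusted p below 0.05 there were 96 (19.7% of all genes), and 126 were positive. For TIP41 the median was 0.30, with 0 called (0.412% of all genes). Here 33 had an unadjusted p below 0.05 (10.7% of all genes), and 125 were positive. For mtDNA loss the median was −0.40, with 11 called, all lower (13.9% of all genes called). In that comparison 83 had an unadjusted p below 0.05 (29% of all genes), and 4 were positive. The medians of the 60 factors in these comparisons were 0.07, 0.03 and −0.12. These comparisons share the ρ0 vector libraries. Between the other groups, the ribosomal protein medians were 0.17 for PDE2 against TIP41, 0.08 for PDE2 against ρ+ and −0.09 for TIP41 against ρ+. For replicate 1 against replicate 0 the median was −0.19, with 6 called, all lower (1.68% of all genes). There 37 had an unadjusted p below 0.05 (12.1% of all genes), and 7 were positive. The part of replicate number and of coding length in these medians was not tested.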

How the data were processed

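Poly(A) RNA of 8 yeast libraries was sequenced as paired ends. The sources differ on whether the second strand was marked, and no strand setting was recorded for the counting. Per the labels, the authors aligned reads with TopHat2 2.0.14 to build R64 and quantified genes with Cuffdiff 2.2.1.1 (geometric normalization, correction for sequence bias and multi-reads). Deposited were estimated counts of fragments per gene, of which 12.3% of those above 0 are not whole (tolerance 0.001), and FPKM values. Columns with the authors' own fold changes, p-values and q-values hold their comparisons and were not used. Coordinates of 53 of 53 factors alone at their locus matched RefSeq R64, and 99.4% of 5223 matched genes did. NOP4, NOP13, NOP56, NOP58, NSR1, RRP9 and NOG2 overlap another gene, which took 0.898% to 9.91% of the pair's fragments.

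Counts were rounded, filtered (filterByExpr), scaled by TMM and fitted with edgeR 4.0.16 (quasi-likelihood, 4 groups, no block, 4 residual degrees of freedom) under R 4.3.3. Intervals are 95% t intervals of the fit. P-values were adjusted over the 5832 genes tested. Alternatives were RLE size factors, DESeq2 1.42.0, no filter, the 2 groups alone, a replicate block, limma 3.58.1 on log2(FPKM + 1) or log2(FPKM + 0.1), and leaving out each library. Fits were checked on simulated counts. The members and lists were chosen with earlier results of these data known. Named were, in each of the comparisons of PDE2, TIP41 and mtDNA loss, the 5 factors with the smallest p (fewer than 5 were called), the highest factor of each of 14 role groups, and list genes that were called (at most 4 for each list and comparison). Other names were chosen after their values were seen.

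The study's methods give different experimenters for the replicates of a group, but do not say whether a number marks the same one in every group. Deviations from the group means of same-numbered libraries correlated at 0.19 to 0.51 in the 6 pairs of groups (log2 CPM, 5832 genes; 0.28 to 0.56 on log2(FPKM + 1)), so the numbers were taken as pairing from the data. Over the 5364 genes with at least 10 fragments in every library the range was 0.02 to 0.47. It was 0.02 between ρ0 PDE2 and ρ+ and 0.04 between ρ0 TIP41 and ρ+, so the pairing with ρ+ is weakly based. The main fit did not use the pairing. It entered the replicate block, the ratios by replicate number and the test of replicate 1 against replicate 0.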

Additional observations from a re-analysis of the deposited data

How the results depend on the processing

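Of 103 recomputed counts of factors past the threshold, 90 were as reported. With PDE2 the count of 0 became 1 (NOP56) in DESeq2 and 1 with the replicate block, and lay between 0 and 3 when a library was left out. For mtDNA loss it lay between 0 and 4 when a library was left out, with 4 without ρ0 vector replicate 0. For ρ0 PDE2 against ρ+ vector it was 1 with the replicate block and 1 in a fit on the 2 groups alone, both NOP56. For replicate 1 against replicate 0 it was 1 in limma with either pseudocount (UTP10), 1 with no filter on low counts (RRP9), and between 0 and 1 when a library was left out. The cause was not tested, beyond fewer samples in the last. The replicate block changed no other call of a factor, and over all genes it called 1160, 571 and 114 for mtDNA loss, PDE2 and TIP41, against 809, 134 and 24 without it. DESeq2 called 522, 242 and 35, and limma on log2(FPKM + 1) called 353, 6 and 2. A fit on the 2 groups alone called 707, 11 and 6.

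The 270 recomputed changes of named factors kept their sign except NOP56 in ρ0 TIP41 against ρ+ vector, which was −0.03 without ρ+ vector replicate 1 and up to 0.38 when another library was left out. Where a library was left out, its partner was assumed to vary like the other groups. By FPKM, 47 factors were positive with PDE2, against 39 on fragments. The group sizes of 2 and 81 fragments for the lowest value limit precision.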

Other observations

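Genes of related lists that differed between the replicate numbers included RPC19, a subunit shared by RNA polymerases I and III, at 209, 179, 172 and 271 FPKM in replicate 1 of ρ0 PDE2, ρ0 TIP41, ρ0 vector and ρ+ vector cells, against 348, 225, 266 and 375 FPKM in replicate 0 (log2 fold change −0.65 ± 0.11; edgeR adjusted p = 4.53e-04). SRP40, a nucleolar chaperone of snoRNPs, was at 375, 288, 278 and 396 FPKM in replicate 1, against 452, 427, 433 and 465 FPKM in replicate 0 (−0.54 ± 0.11; adjusted p = 0.0035). MDN1, the giant ATPase of large subunit maturation, was higher in replicate 1, at 46.9, 41.8, 51.6 and 36.4 FPKM, against 30.6, 30.1, 38.6 and 33.5 FPKM in replicate 0 (0.47 ± 0.11; adjusted p = 0.0162), and RSA4, on which it acts, was lower (−0.39 ± 0.10; adjusted p = 0.0339). Each of the 4 moved in the same direction in all 4 groups.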
